A study of Mus musculus with 29 samples.

Results

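C-type lectin receptors of the Clec family were examined in sorted macrophages of wild-type (WT) and Rnaset2-/- mice, from spleen and from liver. Of the 23930 genes in the expression table, 32 have a symbol that begins with Clec. Clec4f and Clec4g were set aside, which left 30 genes. Of these, 25 reached a mean of 1 RPM (reads normalised to the total of the library) in at least 1 of the 9 groups and are described here, and 5 (Clec18a, Clec2e, Clec2h, Clec2l and Clec3a) stayed under 1 RPM in every group. The study sorted Ly6Chi and Ly6Clow macrophages to characterise the cells that accumulate in mice lacking RNase T2, a lysosomal ribonuclease. All mice were C57BL/6 and untreated, their age is not given in the labels, and the mutants lack both Rnaset2a and Rnaset2b. From the spleen, CD11b+ cells negative for Ly6G, SiglecF and NK1.1 gave 3 libraries each of WT Ly6Chi, WT Ly6Clow and Rnaset2-/- Ly6Chi macrophages and 4 of Rnaset2-/- Ly6Clow macrophages. From the liver there were 3 libraries each of Ly6Chi and Ly6Clow macrophages of both genotypes, and 4 of WT Kupffer cells (KCs), the resident macrophages of the liver, sorted as F4/80+ CD11bint Tim4+ cells. KCs of Rnaset2-/- mice were not analysed here. Whether each library came from 1 mouse or from pooled mice is not stated, so the p-values measure the spread between these libraries.

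C-type lectin receptors are surface proteins of myeloid cells whose extracellular lectin-like domain binds sugars, lipids or proteins of microbes and of damaged cells. The activating members signal through the kinase Syk. Some do so through a hemITAM in their own tail, such as Clec7a (Dectin-1, the β-glucan receptor), Clec1b (CLEC-2, the receptor for podoplanin) and Clec9a (DNGR-1, which binds actin filaments exposed by dead cells), and others through the adaptors FcRγ or DAP12, and the signal then passes to Card9, Bcl10 and Malt1. The inhibitory members, such as Clec12a (MICL) and Clec4a2 (DCIR), carry an ITIM that recruits the phosphatases SHP-1 and SHP-2. The Clec2 proteins are ligands for lectin-like receptors of natural killer cells.

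Of the 25 genes, 20 lie on mouse chromosome 6 (GRCm38, GENCODE annotation). The 9 Clec4 genes measured here, from Clec4a1 to Clec4e, occupy 368.0 kb, and the 6 genes from Clec12a to Clec7a occupy 130.1 kb. For 19 of the 25 genes RefSeq gave a promoter. The 150 bases before the RefSeq start are shown for 5 genes of these 2 clusters, which moved in opposite directions in the liver Ly6Clow comparison below, on the gene's own strand (GRCm38.p6). Clec4d (chr6:123261957-123262106, plus strand) and Clec4e (chr6:123289872-123290021, minus strand) are neighbours that fell together, Clec4b1 (chr6:123049812-123049961, plus strand) and Clec1b (chr6:129397147-129397296, plus strand) rose, and Clec7a (chr6:129472780-129472929, minus strand) fell. Capitals mark matches to any of the motifs searched on both strands, which were GAGGAA (PU.1), TGANTCA (AP-1), CACGTG (E-box), TGTGGT (RUNX) and an interferon-stimulated response element (ISRE).
Clec4d: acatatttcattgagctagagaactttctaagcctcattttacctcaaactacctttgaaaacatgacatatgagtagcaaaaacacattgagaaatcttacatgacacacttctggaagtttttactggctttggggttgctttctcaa
Clec4e: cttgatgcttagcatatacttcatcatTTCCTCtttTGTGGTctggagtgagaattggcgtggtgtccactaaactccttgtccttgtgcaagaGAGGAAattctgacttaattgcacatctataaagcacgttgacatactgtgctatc
Clec4b1: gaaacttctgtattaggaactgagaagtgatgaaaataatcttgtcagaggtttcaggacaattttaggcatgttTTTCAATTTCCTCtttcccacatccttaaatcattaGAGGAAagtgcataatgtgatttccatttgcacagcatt
Clec1b: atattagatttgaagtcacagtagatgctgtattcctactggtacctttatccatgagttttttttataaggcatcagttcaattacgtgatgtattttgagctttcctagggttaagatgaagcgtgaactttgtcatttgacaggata
Clec7a: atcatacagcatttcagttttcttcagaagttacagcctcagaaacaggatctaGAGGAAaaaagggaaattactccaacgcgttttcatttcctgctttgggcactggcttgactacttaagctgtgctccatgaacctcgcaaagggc

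The PU.1 letters, named for a transcription factor of myeloid cells, occurred in 8 of the 19 Clec promoters and in 14.4% of 27025 promoters of the same length. They were present more than once in Clec4e and in Clec4b1, once in Clec7a, and not in the windows of Clec4d and Clec1b. The RUNX letters occurred in 4 of the 19 promoters against 8.53% of all, and those of AP-1 and ISRE in 1 each against 4.27% and 1.6%. In Clec4b1 the ISRE match overlaps a PU.1 match. The E-box letters occurred in 0 of the 19 promoters and in 4.3% of all.

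The libraries held 11175843 to 21167603 reads (median 13027220), so that 3 reads, taken as the floor of detection, correspond to 0.142 to 0.268 RPM. The assay amplifies 1 target per gene, so levels are compared between groups and not between genes. The macrophage and monocyte markers were present in every group, but several libraries stood apart. Markers of neutrophils and their precursors (8 of 8 genes detected) summed to 17574 to 20246 RPM in WT and 19232 to 36038 RPM in Rnaset2-/- spleen Ly6Chi macrophages. In the 4 libraries of Rnaset2-/- spleen Ly6Clow macrophages they summed to 24743, 13858, 2563 and 1833 RPM (replicates 1 to 4), against 532 to 1238 in WT. Kupffer cell markers (8 of 8 detected) summed to 6459 to 11638 RPM in Rnaset2-/- liver Ly6Clow macrophages, 140.2 to 164 in WT, and 4856 to 14689 in KCs, where replicate 3 was the lowest. These sums overlapped KCs, but the Kupffer cell genes Timd4 (Tim4) and Vsig4 did not. Timd4 was at most 66.8 RPM in Rnaset2-/- liver Ly6Clow macrophages, at most 0.911 in WT, and at least 166 in KCs. Vsig4 was at most 226 RPM, at most 28.1 and at least 1239 in the same groups. The KC libraries also held markers of hepatocytes at 1159 to 3973 RPM, of B cells at 469 to 883 and of stellate cells and fibroblasts at 242 to 482. In the other groups these sums were at most 98.2, 375 and 134 RPM. The part of such cells in the KC levels was not tested. In liver Ly6Chi macrophages of Rnaset2-/- mice, replicate 1 differed from the other two by 192 to 197 in chi-square per gene, while these differed from each other by 23.4. Xist was at most 0.154 RPM in all 6 Rnaset2-/- liver libraries and 321 to 949 RPM in the WT liver libraries. Of the latter, 4 also held Y-linked RNA, at 28.95 to 52.0 RPM against 150.1 to 291 RPM in the mutants. These 4 libraries thus held RNA of both sexes, and how it came together was not tested. In liver libraries the sex of the mice and the genotype therefore cannot be told apart. In the spleen, only replicate 2 of the Rnaset2-/- Ly6Clow libraries lacked Xist, at 0.781 RPM.

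**Figure D1:**
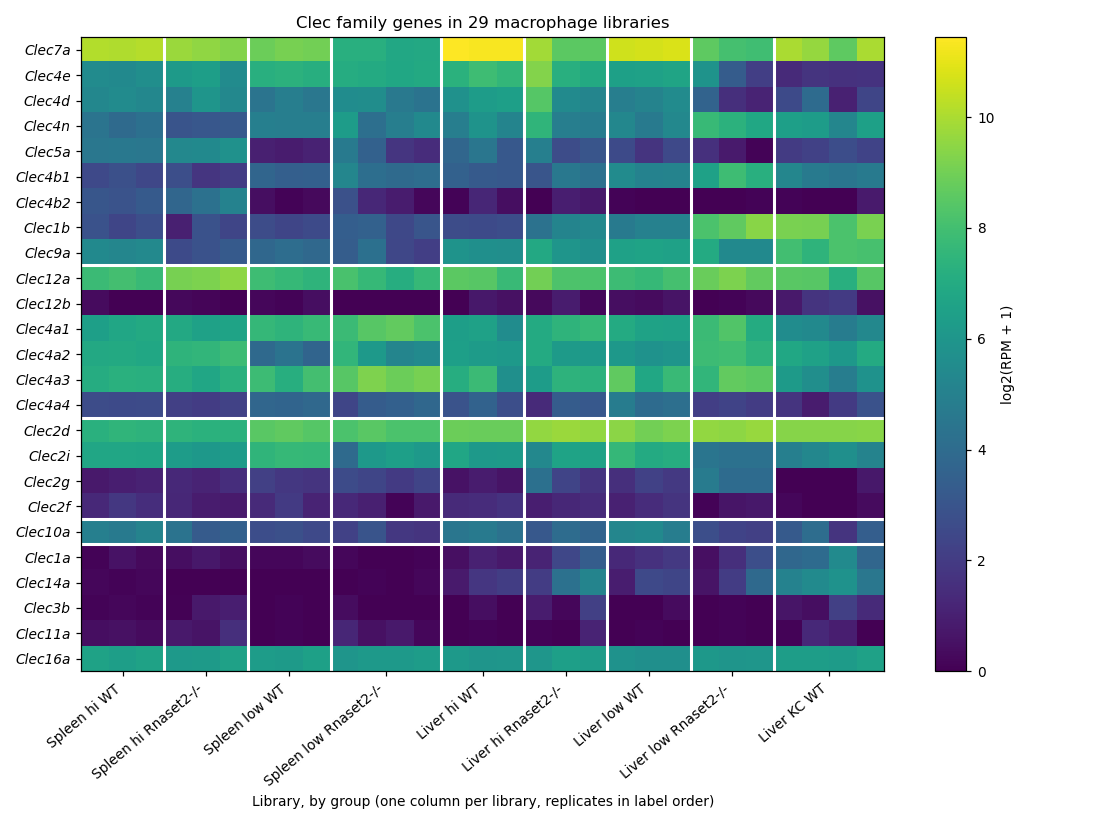
Level of the 25 Clec genes (rows, ordered by role, activating receptors at the top) in the 29 libraries (columns, ordered by group), as log2(RPM + 1). Clec7a was highest in WT liver Ly6Chi and Ly6Clow macrophages, Clec1b was high in KCs and in Rnaset2-/- liver Ly6Clow macrophages, and Clec4b2 was highest in spleen Ly6Chi macrophages.

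The question of the study, how the macrophages of Rnaset2-/- mice differ from those of WT mice, was addressed in 4 comparisons. Genes were tested with limma on log2(RPM + 1) after scaling, and a gene was called where it differed by >1.5-fold at an adjusted p below 0.05. In spleen Ly6Chi macrophages, 20 of the 30 Clec genes passed the filter on low values and 8 were called, 5 higher and 3 lower in Rnaset2-/- mice, while 22.2% of all tested genes were called (9.77% higher and 12.5% lower). The libraries of the genotypes did not overlap for 12 of the 20, against 51% of all genes. With RPM as deposited, the 8 calls were 4 higher and 4 lower. In spleen Ly6Clow macrophages 3 of 19 were called, 2 higher and 1 lower, against 8.35% of all genes (4.05% higher and 4.3% lower), and 8 did not overlap, against 30.7%. In liver Ly6Chi macrophages 5 of 21 were called, 3 higher and 2 lower, against 30.6% of all genes (15.7% higher and 14.9% lower), and 7 did not overlap, against 50.6%. In liver Ly6Clow macrophages 15 of 21 were called, 7 higher and 8 lower, against 42.7% of all genes (20.2% higher and 22.5% lower), and 17 did not overlap, against 56.2%. The median log2 fold change of the tested Clec genes was −0.06, 0.00, −0.09 and 0.20 in these comparisons, and that of all genes was 0.01 in each. The calls in the liver Ly6Clow comparison thus went both ways within the family. The counts include 1 gene in liver Ly6Chi (Clec2g) and 1 in liver Ly6Clow macrophages (Clec2f) that reached the filter only in the group where they were higher. A fold change on this scale understates the change of genes with low values. In such bulk samples, fewer cells of a type and less RNA per cell cannot be told apart. Several comparisons share libraries, such as those of WT liver Ly6Clow macrophages, and their values are given side by side.

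**Figure D2:**
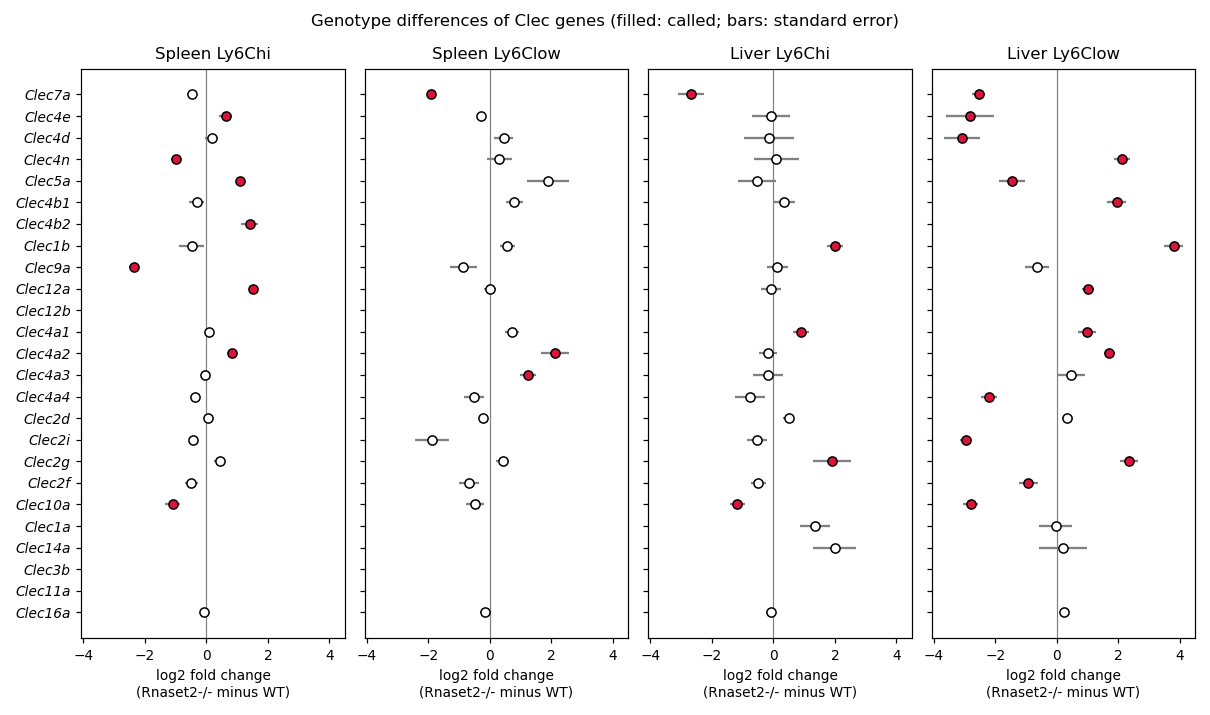
Log2 fold change (x axis, Rnaset2-/- minus WT) of each tested Clec gene (y axis) in the 4 genotype comparisons, with bars of 1 standard error and filled points for called genes. Clec7a lies to the left in every panel, and in liver Ly6Clow macrophages it is joined by Clec4e, Clec4d, Clec2i and Clec10a, while Clec1b, Clec2g, Clec4n and Clec4b1 lie to the right.

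Among the activating receptors, Clec7a was lower in Rnaset2-/- than in WT libraries without overlap in all 4 populations. In spleen Ly6Chi macrophages it was at 1099.6, 1081 and 1148 RPM in WT and 838, 736 and 635 RPM in Rnaset2-/- libraries, a log2 fold change of −0.48 ± 0.11 (SE) with an adjusted p = 0.00811 that stayed under 1.5-fold and was not called. In spleen Ly6Clow macrophages the values were 473, 542 and 512 against 149, 148, 115 and 118 RPM (log2 fold change −1.93 ± 0.12, adjusted p = 0.000125). After scaling, the decline in the spleen thus passed 1.5-fold in Ly6Clow and not in Ly6Chi macrophages. On RPM as deposited the median log2 fold change of all genes in spleen Ly6Chi macrophages was −0.095 instead of 0.01, so the Clec7a decline there lies close to the threshold. Whether the decline differed between the subsets was not tested. In liver Ly6Chi macrophages it went from 2782, 2539 and 2566 RPM to 929, 376 and 379 RPM (log2 fold change −2.68 ± 0.41, adjusted p = 0.00319), and without replicate 1 of the Rnaset2-/- libraries, the highest of them, the log2 fold change was −3.17. Liver Ly6Clow macrophages held 1562, 1684 and 1751 RPM in WT and 385, 271 and 242 RPM in Rnaset2-/- mice (log2 fold change −2.54 ± 0.21, adjusted p = 7.37e-05). The order of the 9 groups ran from WT liver Ly6Chi to Rnaset2-/- spleen Ly6Clow macrophages, a 19.8-fold range of means, and 3 of the 8 neighbouring pairs in that order overlapped. The decline in Ly6Chi macrophages was larger in the liver than in the spleen, with a difference of −2.16 ± 0.45 on the log2 scale (adjusted p = 0.00317). In Ly6Clow macrophages the difference between organs was not called, at −0.60 ± 0.23 (adjusted p = 0.0692).

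Clec4e (Mincle, a receptor for glycolipids) and Clec4d (MCL, its partner, which also couples to FcRγ) fell in liver Ly6Clow macrophages of Rnaset2-/- mice. Clec4e was at 88.4, 93.1 and 103 RPM in WT and 58.5, 9.03 and 3.37 RPM in Rnaset2-/- libraries, a log2 fold change of −2.84 ± 0.79 with an adjusted p = 0.0194. The Rnaset2-/- libraries lay below those of WT but spread widely, and the call was lost in edgeR and without WT replicate 2 or 3 or Rnaset2-/- replicate 2. Clec4d went from 28.4, 34.0 and 44.2 to 11.5, 1.87 and 1.23 RPM (log2 fold change −3.09 ± 0.59, adjusted p = 0.00367) and kept its call in every alternative run. In KCs, Clec4e was lower still, at 1.56, 2.25, 2.10 and 2.18 RPM.

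In liver Ly6Chi macrophages, 1 library stood apart for this pair. Clec4e was at 158, 238 and 188 RPM in WT and 631, 148 and 123 RPM in Rnaset2-/- libraries, and Clec4d was at 54.7, 78.0 and 87.3 and 339.7, 43.9 and 35.8 RPM. Replicate 1 was far above all WT libraries while the other two were below them, and neither gene was called. Without replicate 1 both were called lower, at −0.88 and −1.21, and 11 Clec genes were called in all, 5 higher and 6 lower, 4 of them among the 5 called with all libraries (37.1% of all genes were then called). In spleen Ly6Chi macrophages Clec4e was at 44.5, 42.2 and 49.6 in WT and 73.7, 83.2 and 44.7 RPM in Rnaset2-/- mice (log2 fold change 0.63 ± 0.20, adjusted p = 0.0341), and this call was lost in 8 of 13 alternatives.

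Clec4n (Dectin-2, a receptor for mannans) and Clec4b1 (DCAR, another FcRγ-coupled receptor of the same cluster) rose in liver Ly6Clow macrophages. Clec4n was at 38.9, 25.1 and 40.1 RPM in WT and 206, 161 and 110.2 RPM in Rnaset2-/- libraries (log2 fold change 2.11 ± 0.26, adjusted p = 0.000484). Clec4b1 rose from 45.0, 32.4 and 33.3 to 92.2, 238 and 148 RPM (log2 fold change 1.95 ± 0.31, adjusted p = 0.00165), without overlap between the genotypes. Clec4n therefore moved up where its neighbours Clec4d and Clec4e moved down. In spleen Ly6Chi macrophages, in contrast, Clec4n went from 20.2, 14.6 and 17.4 to 6.85, 7.498 and 8.26 RPM, a log2 fold change of −0.99 ± 0.16 (adjusted p = 0.000947).

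Clec4b2, a further member of this cluster, and Clec5a (MDL-1, which couples to DAP12) were highest in spleen Ly6Chi macrophages and rose there. Clec4b2 was at 7.28, 6.66 and 8.40 RPM in WT and 12.5, 18.1 and 33.1 RPM in Rnaset2-/- libraries (log2 fold change 1.40 ± 0.28, adjusted p = 0.00309), and Clec5a was at 22.2, 23.0 and 22.5 and 39.97, 41.8 and 54.7 RPM (log2 fold change 1.08 ± 0.13, adjusted p = 0.00018). In Rnaset2-/- spleen Ly6Clow macrophages Clec5a was at 25.5, 10.9, 2.41 and 1.76 RPM, against 0.978, 0.823 and 1.12 in WT, a difference that was not called (log2 fold change 1.90 ± 0.69, adjusted p = 0.109). The libraries kept the order of the neutrophil and precursor markers given above, and the part of those cells in the level of Clec5a was not tested. In liver Ly6Clow macrophages Clec5a went from 4.97, 2.27 and 4.74 to 2.001, 0.778 and 0.0770 RPM (log2 fold change −1.45 ± 0.42, adjusted p = 0.0221), a call lost in 6 of 13 alternatives, among them edgeR.

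**Figure D3:**
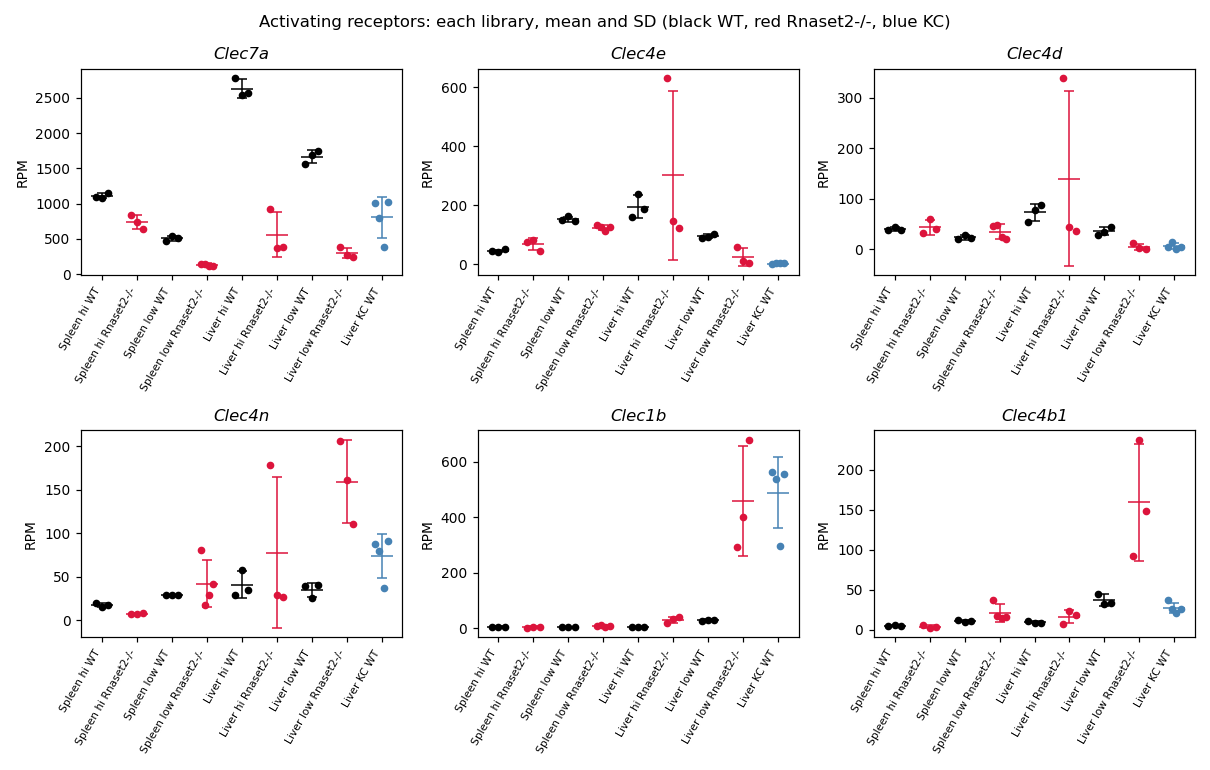
RPM (y axis) of 6 activating receptors in every library of the 9 groups (x axis), with the mean and SD of each group. The Rnaset2-/- points of Clec7a lie below the WT points of the same population, and the high point of Clec4e, Clec4d and Clec4n in Rnaset2-/- liver Ly6Chi macrophages is replicate 1.

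Clec1b had the largest fold change of the family in the genotype comparisons. In liver Ly6Clow macrophages it rose from 25.1, 31.5 and 31.5 RPM in WT to 294, 402 and 679.7 RPM in Rnaset2-/- mice, a log2 fold change of 3.80 ± 0.31 with an adjusted p = 6.86e-05. KCs held 562, 539, 297 and 557 RPM, which overlapped the Rnaset2-/- Ly6Clow libraries (log2 difference 0.40 ± 0.35, adjusted p = 0.37, not called). In liver Ly6Chi macrophages it went from 5.33, 4.92 and 5.55 to 19.0, 35.1 and 39.8 RPM (log2 fold change 2.01 ± 0.26, adjusted p = 0.00168). All spleen libraries were between 1.04 and 10.6 RPM, and neither splenic comparison was called. The difference between organs was 3.24 ± 0.42 in Ly6Clow (adjusted p = 0.000178) and 2.53 ± 0.55 in Ly6Chi macrophages (adjusted p = 0.0039). The Kupffer cell markers moved with Clec1b in both liver comparisons. In Ly6Chi macrophages they summed to 47.9 to 56.7 RPM in WT and 236 to 563 RPM in Rnaset2-/- libraries. Platelet markers, of cells that also carry CLEC-2, summed to 1.85 to 8.09 RPM in WT and 22.5 to 48.2 RPM in Rnaset2-/- liver Ly6Chi macrophages, and to 46.3 to 118 and 32.8 to 49.9 RPM in liver Ly6Clow macrophages. In the latter the members of this list differed in direction. Pf4, which made up most of the WT sum, was at 44.2 to 114 RPM in WT and 4.36 to 8.31 RPM in Rnaset2-/- libraries, whereas Ppbp was at 0.331 to 1.16 and 16.2 to 30.8 RPM and Itga2b at 0.268 to 0.828 and 6.16 to 7.35 RPM. Endothelial markers also moved with Clec1b, from 70.5 to 101 RPM in WT to 402 to 2579 RPM in Rnaset2-/- liver Ly6Chi macrophages. In liver Ly6Clow macrophages their sum went from 241 to 389 to 1367 to 3907 RPM, most of the latter from Pecam1. Pecam1 was there at 148 to 153 RPM in WT and 996 to 3016 RPM in Rnaset2-/- libraries, and Cdh5 at 14.4 to 38.9 and 44.4 to 287 RPM. The genotypes overlapped for the other genes of the list, such as Stab2 at 4.72 to 16.5 and 9.16 to 56.5 RPM. The part of Kupffer cells, platelets or endothelial cells in the level of Clec1b was not tested.

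Clec9a, known from conventional dendritic cells type 1, fell in spleen Ly6Chi macrophages of Rnaset2-/- mice. It was at 42.4, 36.9 and 40.9 RPM in WT and 4.96, 6.27 and 8.36 RPM in Rnaset2-/- libraries, the largest fall of the family in the spleen (log2 fold change −2.36 ± 0.17, adjusted p = 7.38e-06). The summed markers of these dendritic cells (8 of 8 detected) moved with it and were at 559 to 617 RPM in WT and 315 to 362 RPM in Rnaset2-/- libraries. Their defining receptor gene Xcr1 was at 12.7 to 15.1 RPM in WT and 0.945 to 3.04 in Rnaset2-/- libraries, and Flt3 at 19.98 to 22.2 and 2.55 to 4.61 RPM. Markers of other cell types fell in the same libraries, from 471 to 512 to 19.8 to 53.8 RPM for NK cells, from 118 to 121 to 6.81 to 19.5 RPM for T cells and from 76.2 to 80.2 to 10.7 to 16.9 RPM for plasmacytoid dendritic cells. In liver Ly6Clow macrophages the dendritic cell sum was at 552 to 756 RPM in WT and 1454 to 2080 RPM in Rnaset2-/- libraries. Xcr1 was there at 7.23 to 11.2 RPM in WT and 65.6 to 120 RPM in Rnaset2-/- libraries. Flt3 went the other way, from 18.1 to 27.6 RPM to 0.389 to 0.689 RPM, and the mean of Clec9a was also lower in Rnaset2-/- libraries. Clec9a was highest in KCs, at 251, 170.5, 292 and 279.6 RPM, with the dendritic cell sum at 930 to 1378 RPM. The part of such cells in the level of Clec9a was not tested. The annotated gene of Clec9a overlaps that of Clec1b by 474 bases on the same strand. The longest run of bases that their transcripts share is 12.

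The inhibitory receptor Clec12a, which recognises uric acid crystals, rose in spleen Ly6Chi macrophages from 220, 258 and 214 RPM to 541, 576 and 714 RPM (log2 fold change 1.51 ± 0.12, adjusted p = 1.25e-05). It rose in liver Ly6Clow macrophages from 227, 203 and 264 to 448, 589 and 413 RPM (log2 fold change 1.01 ± 0.18, adjusted p = 0.00304). The genotypes did not overlap in either population. In spleen Ly6Clow macrophages the values were 235, 199 and 173 and 281, 204, 139 and 200.4 RPM, with a log2 fold change of 0.00 ± 0.20, and in liver Ly6Chi macrophages 371, 356 and 212 and 511, 304 and 291 RPM, with −0.09 ± 0.33. The difference between organs was called in both subsets and had opposite signs, −1.56 ± 0.38 in Ly6Chi (adjusted p = 0.00739) and 1.02 ± 0.28 in Ly6Clow macrophages (adjusted p = 0.0173).

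Clec4a2, an ITIM-bearing DCIR, was higher in Rnaset2-/- mice in 3 of the 4 populations. In spleen Ly6Chi macrophages it rose from 120.5, 122 and 112 to 172, 184 and 231 RPM (log2 fold change 0.83 ± 0.11, adjusted p = 0.000374). In liver Ly6Clow macrophages it rose from 68.5, 56.1 and 62.3 to 229, 242 and 168 RPM (log2 fold change 1.70 ± 0.17, adjusted p = 0.000186). Both rises were without overlap. In spleen Ly6Clow macrophages Clec4a2 was at 14.2, 19.6 and 11.9 RPM in WT and 183, 71.8, 35.8 and 43.9 RPM in Rnaset2-/- libraries (log2 fold change 2.11 ± 0.47, adjusted p = 0.0288). The 2 highest of these 4 libraries were also the 2 highest for the neutrophil and precursor markers, whose part was not tested. The call was lost without any single WT library or without Rnaset2-/- replicate 2, and without replicate 1 the log2 fold change was 1.67.

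Clec4a4 (DCIR2) moved the other way, from 26.8, 15.1 and 17.0 to 3.39, 3.89 and 3.06 RPM in liver Ly6Clow macrophages (log2 fold change −2.21 ± 0.25, adjusted p = 0.000289). The transcripts of Clec4a2 and Clec4a4 share an identical run of 163 bases, longer than the 100-base reads, which was the only such pair among 276 pairs of Clec genes, so reads could have been split between them. Clec4a1 was at 125, 94.7 and 92.5 RPM in WT and 224, 323 and 131 RPM in Rnaset2-/- liver Ly6Clow macrophages (log2 fold change 0.99 ± 0.29, adjusted p = 0.024), and it was at 83.7, 92.5 and 45.8 and 128, 175 and 202 RPM in liver Ly6Chi macrophages (0.90 ± 0.26, adjusted p = 0.0354). Both of these calls were lost in several alternatives, 3 and 6 of 13. Clec4a3 was called in spleen Ly6Clow macrophages, at 228, 145 and 257 RPM in WT and 354, 598, 462 and 552 RPM in Rnaset2-/- libraries (1.24 ± 0.25, adjusted p = 0.0212), with the same libraries deciding the call as for Clec4a2. Clec12b, an ITIM receptor, was at most 2.79 RPM in any library.

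**Figure D4:**
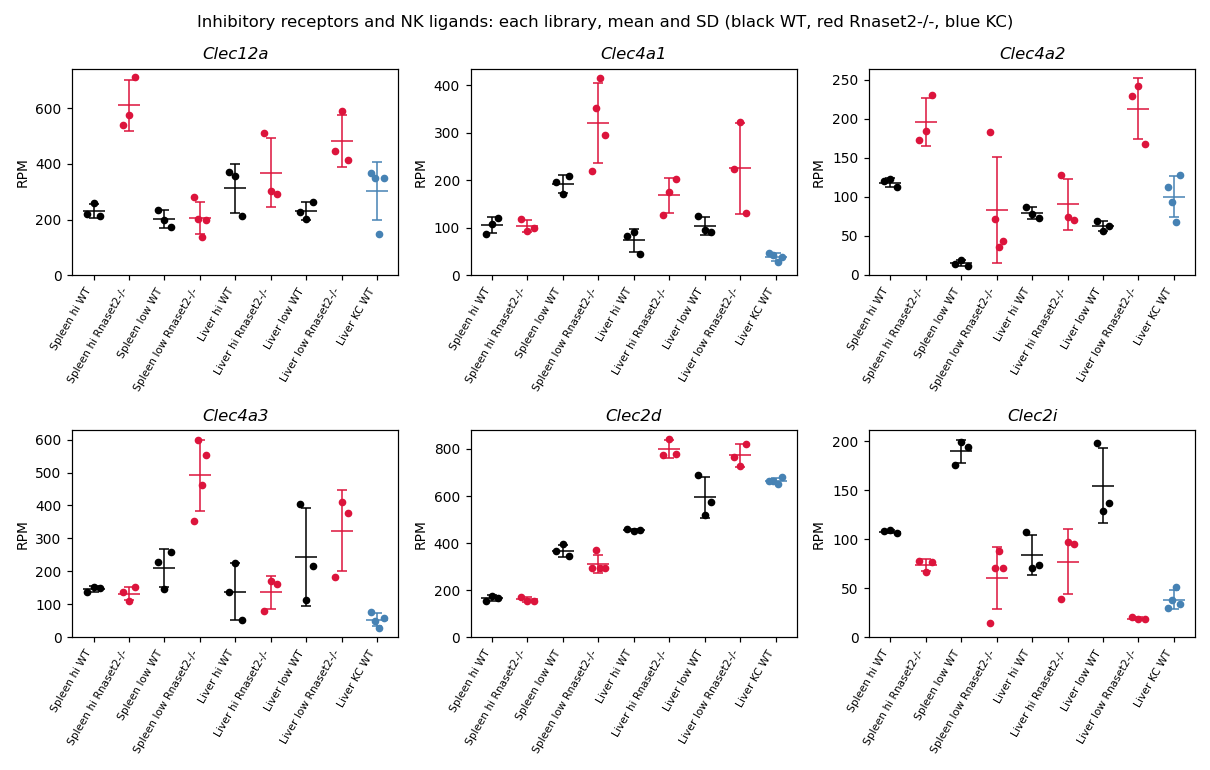
RPM (y axis) of 4 inhibitory receptors and 2 ligands of NK receptors in every library of the 9 groups (x axis), with the mean and SD of each group. The 3 Rnaset2-/- spleen Ly6Chi libraries of Clec12a lie between 541 and 714 RPM, above all WT libraries of that population, and the 3 Rnaset2-/- liver Ly6Clow libraries of Clec2i lie between 18.4 and 20.6 RPM.

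Of the Clec2 ligands, Clec2i (Clr-g) fell in liver Ly6Clow macrophages from 198, 128 and 137 RPM to 20.6, 18.4 and 18.5 RPM (log2 fold change −2.96 ± 0.19, adjusted p = 2.77e-05). In spleen Ly6Clow macrophages it was at 176, 199 and 194 in WT and 14.7, 70.5, 87.6 and 70.4 RPM in Rnaset2-/- libraries, all below WT with replicate 1 the lowest, and the difference was not called (log2 fold change −1.87 ± 0.55, adjusted p = 0.0665). Without that replicate it was called, at −1.27. Clec2g rose in liver Ly6Clow macrophages, from 1.90, 3.57 and 2.68 to 26.1, 15.02 and 14.8 RPM (log2 fold change 2.34 ± 0.30, adjusted p = 0.000584). In the liver Ly6Chi population Clec2g was at 0.463, 0.834 and 0.537 RPM in WT and 17.7, 4.09 and 2.31 RPM in Rnaset2-/- libraries. There it passed the filter only through the Rnaset2-/- libraries, so its call is not counted as evidence of a difference. Clec2d (Clr-b, the ligand of the inhibitory receptor NKR-P1B) was not called in any genotype comparison. Its libraries of liver Ly6Chi macrophages were at 461, 450.3 and 454 RPM in WT and 776, 844 and 776 RPM in Rnaset2-/- mice, without overlap, with a log2 fold change of 0.49 ± 0.17 after scaling (adjusted p = 0.0656). On RPM as deposited the median log2 fold change of all genes in that comparison was 0.31 instead of 0.01. In liver Ly6Clow macrophages its libraries were at 521 to 691 RPM in WT and 727 to 823 RPM in Rnaset2-/- mice. Clec2f was at 1.08, 1.74 and 2.33 RPM in WT and 0.0770, 0.545 and 0.689 RPM in Rnaset2-/- liver Ly6Clow macrophages. It passed the filter only through the WT libraries, and its call as lower was lost in DESeq2, in edgeR and without Rnaset2-/- replicate 1 or 2. Leaving out any single WT library took Clec2f under the filter, so it was not tested in those runs.

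Clec10a (MGL1, an endocytic receptor for galactose-type sugars) fell in 3 of the 4 populations. In spleen Ly6Chi macrophages it went from 29.5, 25.7 and 33.3 to 19.7, 8.63 and 10.4 RPM (log2 fold change −1.09 ± 0.24, adjusted p = 0.00559). In liver Ly6Chi macrophages it went from 21.5, 25.4 and 18.6 to 7.75, 15.7 and 12 RPM (−1.17 ± 0.25, adjusted p = 0.0108). The largest fall was in liver Ly6Clow macrophages, from 37.5, 42.1 and 27.7 to 5.70, 3.97 and 3.52 RPM (−2.80 ± 0.25, adjusted p = 9.51e-05). The genotypes did not overlap in any of these 3 comparisons.

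The remaining genes are known mainly for roles other than microbe sensing by macrophages. Clec14a, an endothelial surface protein, was at 0.772, 2.50 and 3.22 RPM in WT and 3.15, 18 and 34.9 RPM in Rnaset2-/- liver Ly6Chi macrophages, and at 32.3, 43.7, 55.6 and 22.2 RPM in KCs. Clec1a, also found on endothelium, was at 0.386, 1.08 and 0.716, 1.23, 4.40 and 9.46 and 12.9, 14.9, 44.1 and 12.9 RPM in the same 3 groups. The summed level of 9 endothelial markers was 70.5 to 101 RPM in WT and 402 to 2579 RPM in Rnaset2-/- liver Ly6Chi macrophages and 2978 to 5753 RPM in KCs. In Rnaset2-/- liver Ly6Clow macrophages the sum was 1367, 2064 and 3907 RPM (replicates 1 to 3). Clec14a was there at 0.539, 3.11 and 13.9 RPM and Clec1a at 0.385, 1.87 and 5.82 RPM. Most of that sum was Pecam1, at 996, 1838 and 3016 RPM, with Stab2 at 9.16, 15.6 and 56.5 RPM. In Rnaset2-/- liver Ly6Chi macrophages Pecam1 was at 131, 754 and 643 RPM and Stab2 at 21.6, 129 and 222 RPM. Cdh5 was at 44.4 to 287 RPM in the former and 59.6 to 277 RPM in the latter. Similar sums thus differed in their genes and went with different levels of Clec14a and Clec1a. In Rnaset2-/- spleen Ly6Clow macrophages this sum was 1462 to 2202 RPM, almost all of it Pecam1, with Stab2 at 0 in all 4 libraries, and Clec14a was at most 0.141 RPM. The part of endothelial RNA in these values was not tested. Clec16a, a regulator of mitophagy without a lectin domain, was at 50.2 to 95.0 RPM in all libraries and was called in none of the 4 genotype comparisons. Clec3b and Clec11a, which encode secreted proteins, were at most 3.49 and 1.95 RPM in any library. They were too low for the fit in the genotype comparisons, where exact permutation tests of them (two-sided) gave p-values no lower than 0.1 with 3 libraries against 3, the smallest that design allows, and 0.0571 with 4 against 3, also the smallest.

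**Figure D5:**
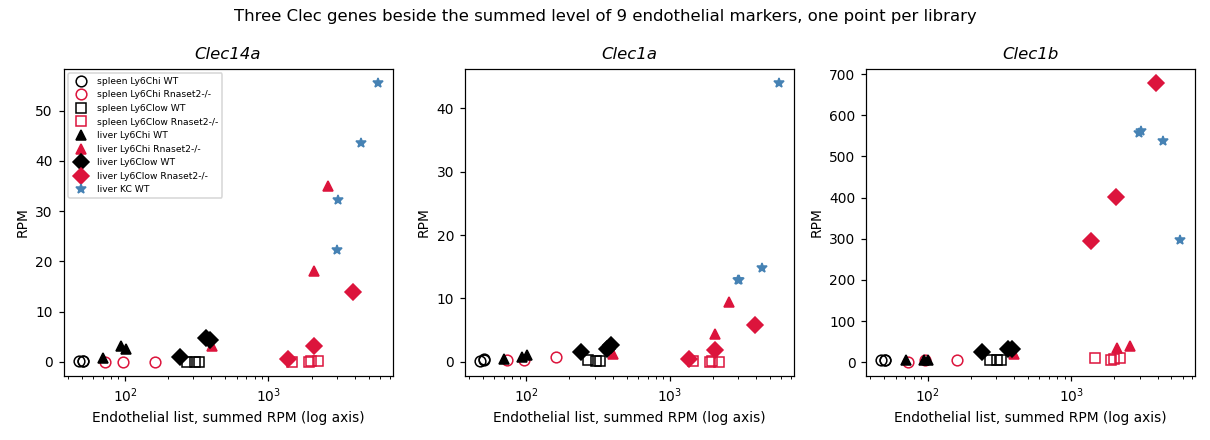
RPM of Clec14a, Clec1a and Clec1b (y axes) against the summed RPM of 9 endothelial markers (x axis, log scale), with a point for each of the 29 libraries. The points of Clec14a and Clec1a are high only at the right, in liver libraries, although some liver libraries at the right are low, and the spleen Ly6Clow libraries of Rnaset2-/- mice stay near 0 at sums of 1462 to 2202 RPM.

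Ly6Clow and Ly6Chi macrophages were compared within each organ and genotype. In the WT spleen, 16 of 20 tested Clec genes differed, 9 higher and 7 lower in Ly6Clow macrophages, against 33.6% of all genes (13.8% higher and 19.8% lower). Clec5a (−3.47 ± 0.15, adjusted p = 5.56e-08), Clec4a2 (−2.76 ± 0.16, adjusted p = 3.69e-07), Clec4b2 (−2.72 ± 0.18, adjusted p = 7.41e-07) and Clec10a (−2.11 ± 0.15, adjusted p = 1.27e-06) were lower in Ly6Clow macrophages, and Clec4e (1.87 ± 0.09, adjusted p = 1.55e-07) was higher. Clec4b2 passed the filter there only through the Ly6Chi libraries. In the Rnaset2-/- spleen 14 of 19 differed, 8 higher and 6 lower, against 28.1% of all genes (13% higher and 15.1% lower). Its 5 largest were Clec4b2 (−3.07 ± 0.57, adjusted p = 0.00568), Clec5a (−2.64 ± 0.69, adjusted p = 0.0208), Clec7a (−2.45 ± 0.14, adjusted p = 3.61e-05), Clec4b1 (2.18 ± 0.34, adjusted p = 0.00292) and Clec4n (2.13 ± 0.42, adjusted p = 0.00755). In the WT liver 8 of 21 differed, 4 in each direction, against 10.1% of all genes (5.24% higher and 4.84% lower), with Clec1b (2.17 ± 0.18, adjusted p = 0.000133) and Clec4b1 (1.81 ± 0.20, adjusted p = 0.000678) higher in Ly6Clow and Clec5a (−1.62 ± 0.36, adjusted p = 0.0208), Clec4d (−1.13 ± 0.22, adjusted p = 0.0111) and Clec4a4 (1.13 ± 0.27, adjusted p = 0.0309) next in size. In the Rnaset2-/- liver 9 of 20 differed, 4 higher and 5 lower, against 17% of all genes (8.75% higher and 8.26% lower). Clec4d (−4.12 ± 1.03, adjusted p = 0.0365), Clec1b (3.97 ± 0.36, adjusted p = 0.00259), Clec4e (−3.89 ± 1.04, adjusted p = 0.0448), Clec4b1 (3.42 ± 0.44, adjusted p = 0.00564) and Clec5a (−2.60 ± 0.70, adjusted p = 0.0452) led there. Without Rnaset2-/- Ly6Chi replicate 1 the count was 10, and without Ly6Chi or Ly6Clow replicate 2 or 3 it was 2. Clec4e was higher in Ly6Clow than in Ly6Chi macrophages in the spleen of both genotypes and lower in the liver of both, although the call in the Rnaset2-/- liver was lost without Ly6Chi replicate 1 (log2 fold change −3.07, adjusted p = 0.0671).

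WT macrophages of the liver were compared with those of the spleen. Among Ly6Chi macrophages 10 of 19 tested Clec genes differed, 9 higher and 1 lower in the liver, against 37.8% of all genes (17.1% higher and 20.7% lower), and with RPM as deposited 8 differed, 6 higher and 2 lower. Clec4e (2.33 ± 0.14, adjusted p = 2.42e-06), Clec2d (1.72 ± 0.10, adjusted p = 2.11e-06), Clec7a (1.52 ± 0.11, adjusted p = 6.74e-06) and Clec4n (1.39 ± 0.23, adjusted p = 0.00095) were higher in the liver, and Clec4b2 (−2.32 ± 0.28, adjusted p = 0.000156) was lower. Among Ly6Clow macrophages 12 of 20 differed, 10 higher and 2 lower, against 34.1% of all genes (18.8% higher and 15.3% lower). The higher genes include Clec1a, which passed the filter there only through the liver libraries, so its call is not counted as evidence of a difference. Clec9a (2.70 ± 0.14, adjusted p = 1.41e-06), Clec10a (2.54 ± 0.19, adjusted p = 1.2e-05), Clec1b (2.41 ± 0.19, adjusted p = 1.27e-05), Clec4a2 (2.03 ± 0.18, adjusted p = 3.46e-05) and Clec7a (1.75 ± 0.12, adjusted p = 6.9e-06) were the largest. Clec7a was thus higher in the liver in both subsets.

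KCs differed from WT liver Ly6Clow macrophages in 15 of 21 tested Clec genes, 4 higher and 11 lower, against 50% of all genes (26% higher and 24% lower). The lower genes include Clec2f and Clec2g, which passed the filter there only through the Ly6Clow libraries, so these calls are not counted as evidence of a difference. With RPM as deposited, 17 differed, 7 higher and 10 lower, and on that scale the median log2 difference of all genes was 0.55 instead of 0.02. Clec4e (−5.48 ± 0.21, adjusted p = 6.28e-08) was the furthest below, followed by Clec4d (−3.18 ± 0.53, adjusted p = 0.000514) and Clec4a4 (−2.97 ± 0.41, adjusted p = 0.000149). Clec1b (3.39 ± 0.24, adjusted p = 1.96e-06) and Clec14a (2.76 ± 0.44, adjusted p = 0.000383) were above, the latter with the endothelial markers. KCs served as the reference for Rnaset2-/- liver Ly6Clow macrophages as well, and 13 of 20 tested Clec genes differed there, 9 higher and 4 lower in the Ly6Clow macrophages, against 45.6% of all genes (19.4% higher and 26.3% lower), and 7 were higher and 6 lower with RPM as deposited. Clec2g (4.35 ± 0.31, adjusted p = 2.51e-05), Clec4a3 (3.13 ± 0.38, adjusted p = 0.000274), Clec4a1 (2.96 ± 0.28, adjusted p = 9.38e-05), Clec4b1 (2.95 ± 0.31, adjusted p = 0.000144) and Clec4e (2.60 ± 0.71, adjusted p = 0.0141) were higher. Clec2g passed the filter there only through the Ly6Clow libraries, so its call is not counted as evidence of a difference. Clec4a1 and Clec4b1 were thus called higher in Rnaset2-/- Ly6Clow macrophages than in KCs and than in WT Ly6Clow macrophages. Clec1b was called higher in them than in WT Ly6Clow macrophages and overlapped KCs.

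The difference in the genotype effect between the organs was called for 9 of 21 tested Clec genes in Ly6Clow macrophages, 4 with a more positive change in the liver and 5 with a more negative one, against 26.8% of all genes (12.1% and 14.7% in these directions), and for 7 of 22 in Ly6Chi macrophages, 3 and 4, against 33.5% of all genes (17.6% and 16% in these directions). With RPM as deposited the split in Ly6Chi macrophages was 5 and 2. Besides the genes above, Clec4d (−3.54 ± 0.71, adjusted p = 0.0029), Clec5a (−3.35 ± 0.90, adjusted p = 0.0152) and Clec10a (−2.33 ± 0.40, adjusted p = 0.00109) had a more negative genotype difference in liver than in spleen Ly6Clow macrophages, and Clec9a (2.52 ± 0.42, adjusted p = 0.000808) fell in spleen Ly6Chi macrophages while its log2 fold change in those of the liver was 0.13 ± 0.35 (adjusted p = 0.807).

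Genes that signal for these receptors and other lectin receptors were given beside them. Of 32 signalling genes, 31, 30, 31 and 31 passed the filter in the spleen Ly6Chi, spleen Ly6Clow, liver Ly6Chi and liver Ly6Clow comparisons, and 1, 3, 3 and 6 were higher and 5, 0, 8 and 10 lower in Rnaset2-/- mice, beside 22.2%, 8.35%, 30.6% and 42.7% of all tested genes called. Their median log2 fold changes were −0.01, −0.15, −0.27 and −0.21. Syk, Card9, Bcl10, Malt1, Prkcd and Cd209a were singled out after their values were seen. Syk, the kinase of the activating receptors, was called higher in both Ly6Clow comparisons (1.297 in the spleen and 2.28 in the liver). Card9, Bcl10 and Malt1, which act behind it, were called lower in liver Ly6Clow macrophages, at −1.50, −1.11 and −2.33, as was Prkcd at −2.09. The calls with large changes included Blnk (−1.60) in spleen Ly6Chi macrophages, Blnk (2.50) and Lyn (1.60) in spleen Ly6Clow macrophages, Blnk (1.502), Prkcd (−1.41) and Card9 (−1.28) in liver Ly6Chi macrophages, and Lyn (2.35), Syk, Nfatc2 (−2.53) and Malt1 in liver Ly6Clow macrophages. Of 24 lectin receptor genes whose names do not begin with Clec, 10, 9, 15 and 16 were tested, with 2, 1, 4 and 3 higher and 5, 2, 5 and 10 lower, beside the same shares of all genes. Their median log2 fold changes were −0.62, 0.17, −0.62 and −1.27. Cd209a, a DC-SIGN homologue, was lower in all 4 comparisons (−2.24, −2.06, −4.22 and −6.56). The 2 largest rises and falls were Mgl2 (1.20), Ly75 (0.98), Cd209d (−2.49) and Mrc1 (−2.30) in spleen Ly6Chi, Cd302 (0.75), Cd209a and Mrc2 (−1.84) in spleen Ly6Clow, Ly75 (3.84), Fcer2a (3.76), Cd209a and Cd209d (−1.89) in liver Ly6Chi, and Fcer2a (2.22), Cd207 (2.05), Cd209a and Cd209c in liver Ly6Clow macrophages, all as log2 fold changes. For Cd209c no fold is given, since all Rnaset2-/- libraries of that population were at 0. Mrc1, the mannose receptor, fell in spleen Ly6Chi macrophages, whereas Mgl2, a paralog of Clec10a, rose there while Clec10a fell. In liver Ly6Chi macrophages B cell markers summed to 19.1 to 21.2 RPM in WT and 95.3 to 299 RPM in Rnaset2-/- libraries. T cell markers there went from 1.54 to 6.09 to 102 to 290 RPM and NK cell markers from 10.1 to 19.3 to 57.5 to 381 RPM. In liver Ly6Clow macrophages the B cell sum went from 25.9 to 30.1 to 105 to 375 RPM. The part of these cells in the liver values above was not tested.

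Over the group means of the 9 groups, the patterns of Clec14a and Clec1a were most alike (Pearson r = 0.963 of log2(RPM + 1), as a description), followed by Clec2d with Clec4n (0.894) and Clec4a1 with Clec4a3 (0.888). The neighbours Clec4d and Clec4e had r = 0.819. Clec2d and Clec4b2 were the least alike, with r = −0.894.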

How the data were processed

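The study measured RNA of sorted macrophages in 29 libraries by amplicon sequencing of the transcriptome (Ion AmpliSeq, 1 target per gene, Ion Proton). The authors counted reads of about 100 bases per gene and deposited them as RPM, reads scaled to the library total, for 23930 genes. The submitters' notes name mm10, and positions are from GENCODE vM21 and RefSeq (GRCm38). The library is not stated to keep strand. The RPM corresponded to whole reads in 100% of values within 0.1 read, which gave the totals of 11175843 to 21167603 reads.

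Values were scaled by relative log expression (RLE) factors. A gene reaching 1 RPM in 3 or more of the compared libraries entered limma 3.58.1 (lmFit, eBayes with trend, R 4.3.3) on log2(value + 1), two-sided, with Benjamini-Hochberg adjustment over all tested genes, and was called at >1.5-fold with an adjusted p below 0.05. Two-group fits used only the libraries of the groups compared, and organ-by-genotype interactions those of 4 groups. Samples were grouped by the labels. Levels are RPM as deposited. Genes under the filter had exact permutation tests. The fit was tested on simulated counts. For 3 against 3 libraries (spleen Ly6Chi, 10360 genes), it recovered 54 of 100 genes changed 2-fold and 100 of 100 changed 4-fold, and called 6 of 10160 unchanged genes.

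Alternatives were 0.1 added in place of 1, no filter, RPM as deposited, all 29 libraries in a single fit, the replicate number as a block, DESeq2 1.42.0 and edgeR 4.0.16 on the recovered reads, and leaving out each library. The groups share replicate numbers. Deviations of same-numbered libraries from the group means correlated above 0.1 in every pair in 3 of 12 comparisons. These were Rnaset2-/- liver Ly6Clow against Ly6Chi (0.178 to 0.449), WT Ly6Clow liver against spleen (0.148 to 0.439) and Rnaset2-/- liver Ly6Clow against KCs (0.140 to 0.336). In the last of these a number cannot mark 1 mouse, since the genotypes differ. Nor can it for replicates 2 and 3 of WT Ly6Clow macrophages. Their liver libraries held Y-linked RNA at 52.0 RPM and their spleen libraries 0. What same-numbered libraries share was not tested. No 2 libraries of a group agreed within sampling noise. The genes to name in each comparison were up to 5 called genes with the largest fold change, and all called genes in the genotype comparisons. The members and the gene lists were chosen with earlier results of these data known. The floor of 3 reads covers counting error only. Rnaset2a, Rnaset2b and the Ly6c genes were not used here, and the values of some signalling genes that the lists hold are not reported here.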

Additional observations from a re-analysis of the deposited data

Results flagged for a closer look

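In the groups of 4 libraries, 5 of 40 tested gene levels had a library far from the other three, by a rule that flags about 1 in 20 levels by chance. The levels come from the same libraries and are not independent, so this count cannot be weighed against that rate. In replicate 3 of the KCs, Clec12a was at 148 RPM (others 349 to 368), Clec1b at 297 RPM (others 539 to 562) and Clec1a at 44.1 RPM (others 12.9 to 14.9). That library also had the lowest Kupffer cell and the highest endothelial marker sum of the 4. Clec2d was at 370.2 RPM in replicate 2 of Rnaset2-/- spleen Ly6Clow macrophages (others 294), and Clec4b1 at 37.6 RPM in replicate 1 (others 14.7 to 16.4).

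The genotype difference (Rnaset2-/- minus WT) differed between liver and spleen, by the interaction of organ and genotype in limma, for 9 genes in Ly6Clow macrophages. As liver minus spleen on the log2 scale these were 3.24 for Clec1b, 1.93 for Clec2g, 1.81 for Clec4n, 1.02 for Clec12a, −1.69 for Clec4a4, −2.33 for Clec10a, −2.54 for Clec4e, −3.35 for Clec5a and −3.54 for Clec4d. In Ly6Chi macrophages 7 genes differed, with 2.53 for Clec1b, 2.52 for Clec9a, 2.20 for Clec14a, −0.97 for Clec4a2, −1.54 for Clec4b2, −1.56 for Clec12a and −2.16 for Clec7a. The values for Clec4e in Ly6Clow and for Clec14a, Clec4a2 and Clec4b2 in Ly6Chi macrophages lost their call in most of the alternatives run. As above, sex differed with genotype in the liver libraries.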

How the results depend on the processing

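Of 144 called differences of single Clec genes, none turned direction in any alternative run that tested them, and 89 were called in all such runs. A run in which a gene did not pass the filter or had no adjusted p was left out of these counts. In 1998 values, 248 lost the call. The counts changed most in comparisons with few calls. With all 29 libraries in a single fit the count was 3 for the genotype comparison of spleen Ly6Chi and 5 for that of spleen Ly6Clow macrophages, 2 for WT liver Ly6Clow against Ly6Chi, and 6 for WT Ly6Chi liver against spleen. Without a filter it was 3 for the genotype comparison of liver Ly6Chi macrophages, 5 and 4 for liver Ly6Clow against Ly6Chi in WT and Rnaset2-/- mice, and 4 for the interaction in Ly6Chi macrophages. DESeq2 gave 7 for the genotype comparison of spleen Ly6Clow macrophages, and edgeR gave 5 for Rnaset2-/- liver Ly6Clow against Ly6Chi and 4 for the interaction in Ly6Chi macrophages. The cause was not tested.

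With the replicate number as a block, 5 genes were called in the genotype comparison of spleen Ly6Clow macrophages and 9 in Rnaset2-/- spleen Ly6Clow against Ly6Chi macrophages. In neither did every same-numbered pair correlate above 0.1. In the 3 comparisons where every same-numbered pair correlated above 0.1, the block gave 12, 12 and 13 called genes. There it ended 1 call, that of Clec5a in Rnaset2-/- liver Ly6Clow macrophages against KCs. It moved no other count by over 1.5 times.

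Leaving out 1 library gave 1 to 5 called genes in the genotype comparison of spleen Ly6Clow macrophages (1 without any WT library or Rnaset2-/- replicate 2, 5 without Rnaset2-/- replicate 1), and 3 to 11 in that of liver Ly6Chi macrophages (11 without Rnaset2-/- replicate 1, 3 without WT replicate 1 or 3 or Rnaset2-/- replicate 2 or 3). It gave 5 to 8 in WT liver Ly6Clow against Ly6Chi (5 without Ly6Clow replicate 3), 2 to 10 in the same comparison of Rnaset2-/- mice (2 without Ly6Chi or Ly6Clow replicate 2 or 3), and 4 to 12 in the interaction in Ly6Chi macrophages (12 without Rnaset2-/- liver replicate 1, 4 without any WT spleen library or Rnaset2-/- spleen replicate 2 or 3). With 3 libraries a group, changes of about 2-fold were often missed in the simulated data, so a gene that was not called is not shown to be equal.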
